A study of Homo sapiens with 12 samples.

Results

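The 10 genes described here are FOS, FOSB and FOSL1, which encode FOS proteins; JUN, JUNB and JUND, which encode the JUN proteins; the zinc-finger factors EGR1 and EGR2; and the early-response genes IER2 and ATF3. They were taken by symbol from the 43876 genes of the deposited table, as the immediate early genes and AP-1 subunits that go with FOS. FOS itself was selected on these data, because its FPKM was lower with gilteritinib and with the combination than with mitoxantrone, so those differences are given below as a description with no test. The study asked how mitoxantrone-liposome changes the response of FLT3-ITD acute myeloid leukemia (AML) to gilteritinib, an inhibitor of the FLT3 kinase. Its RNA-seq used MV4-11, a human AML cell line with an internal tandem duplication in FLT3, cultured for 24 h under 4 conditions with 3 libraries each. Mito-Lipo cells received 20 nM mitoxantrone, a DNA-intercalating topoisomerase II inhibitor that the labels name as mitoxantrone and the study's title as mitoxantrone-liposome. Gilteritinib cells received 25 nM gilteritinib, Com cells received 20 nM mitoxantrone with 20 nM gilteritinib, and DMSO cells received the vehicle. The labels give the genotype as wild-type, so nothing was knocked out or introduced. All values come from 1 cell line at 1 time, and no source says whether the 3 libraries of a condition came from separate cultures, so p-values measure only the spread between these libraries.

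Immediate early genes are transcribed within minutes of a growth signal from transcription factors already present in the cell, and their short-lived mRNAs normally fade again soon after. FLT3 signals through RAS and ERK, and ERK activates the ternary complex factors that sit with SRF on CArG boxes, a main switch of FOS and EGR1. FOS and JUN proteins pair through leucine zippers into AP-1, which binds the AP-1 site. JUN proteins can also pair with each other and with ATF proteins, whereas FOS proteins need a partner. EGR proteins induce NAB2, a corepressor that in turn restrains them, and ATF3 is a stress-induced partner that often represses.

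The promoters of EGR1, EGR2 and JUND are shown because a match to a searched motif was found only in them, and because EGR1 and JUND are among the genes the results turn on. RefSeq start sites on GRCh38.p14 gave 12 windows for 9 of the 10 genes, each from 250 bases before to 50 bases after the start, and both strands were searched. The CArG box, the site of SRF, was matched in EGR1 and EGR2 and in 1.29% of all 35116 windows of that length. The FOS window held no match. Bases more than 250 before its start were not searched, so a CArG box of FOS further upstream would be missed. The cAMP response element TGACGTCA, which CREB and ATF factors bind, was matched in JUND and in 1.85% of all windows. The AP-1 site TGACTCA and the EGR site GCGGGGGCG were matched in 0 of the 12 windows, against 4.95% and 5.77% of all windows. Only the 250 bases before each start are printed, 5′ to 3′ on the gene's strand, with the matches in capitals. In EGR1 (chr5:138465229-138465478, plus strand) the CArG boxes lie at -105 to -96 and at -83 to -74 from the start. In EGR2 (chr10:62816367-62816616, minus strand, 1 of 3 start sites) the box lies at -71 to -62. In JUND (chr19:18281623-18281872, minus strand) the cAMP response element lies at -200 to -193.
EGR1: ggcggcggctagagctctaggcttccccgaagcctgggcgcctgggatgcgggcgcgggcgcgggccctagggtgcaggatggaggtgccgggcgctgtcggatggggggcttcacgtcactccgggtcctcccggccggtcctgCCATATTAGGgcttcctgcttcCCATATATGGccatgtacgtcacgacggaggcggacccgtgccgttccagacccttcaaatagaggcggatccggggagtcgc
EGR2: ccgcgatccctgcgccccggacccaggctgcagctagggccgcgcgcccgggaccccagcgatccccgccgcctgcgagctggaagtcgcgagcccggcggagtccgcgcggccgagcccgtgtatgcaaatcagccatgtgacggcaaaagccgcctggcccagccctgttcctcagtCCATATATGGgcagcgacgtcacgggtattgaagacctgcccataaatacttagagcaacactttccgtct
JUND: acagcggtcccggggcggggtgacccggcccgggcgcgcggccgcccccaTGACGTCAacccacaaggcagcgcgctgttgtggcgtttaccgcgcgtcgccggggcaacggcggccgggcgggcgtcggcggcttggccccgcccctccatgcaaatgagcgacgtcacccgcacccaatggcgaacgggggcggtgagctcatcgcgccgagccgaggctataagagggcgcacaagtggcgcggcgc
The second box of EGR1 and the box of EGR2 are the same letters. A match is a description of these letters and not a measured binding site.

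Depth was about 31727000 to 41329000 fragments per library, as recovered from the steps of the FPKM values. Of the markers of myeloid and MV4-11 cells, 9 of 10 were at 1 FPKM or more in all 12 libraries, with FLT3 at 132 to 171 FPKM. Of 11 lymphoid, erythroid, epithelial and stromal markers, 7, among them CD3E, MS4A1 and EPCAM, stayed under 0.1 FPKM in all libraries, while NKG7 and PECAM1, for example, were at 1 FPKM or more in all. Libraries are compared by replicate number here, and several of these genes were low in replicate 1 of every condition. EGR1 averaged 7.56 FPKM over the 4 replicate 1 libraries and 33.6 FPKM over the other 8, a 4.45-fold gap. The gap was 3.16-fold for ATF3 and 1.84-fold for IER2. In these 3 genes all replicate 1 libraries lay below all others, which held for 6.39% of the 18574 genes tested. What a replicate number stands for is not given in the sources used here. Values are therefore given by replicate number, always in the order 1, 2, 3, and a second test that takes replicate number as a block stands beside the main one where it matters.

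FPKM divides fragments by gene length and library depth, so levels can be compared between genes. In DMSO the most abundant transcript was JUND, at 108 ± 24.0 FPKM (SD, n = 3). FOS followed at 28.8 ± 6.87, JUNB at 28.8 ± 7.28 and EGR1 at 24.7 ± 12.4 FPKM, and the libraries of these 3 genes overlapped. IER2 stood at 9.01 ± 2.96 and FOSL1 at 5.003 ± 1.51 FPKM. FOSB at 2.23 ± 0.787, ATF3 at 2.16 ± 0.990 and JUN at 1.53 ± 0.510 FPKM formed a lower group, and EGR2 was lowest at 0.159 ± 0.0871 FPKM. Neighbours in this order overlapped except at 3 steps, between JUND and FOS, between FOSL1 and FOSB, and between JUN and EGR2. EGR2 reached 1 FPKM in 0 libraries, about 11 to 83 fragments each, and did not enter the tests, so 9 of the 10 genes were tested. Over all 12 libraries ATF3 varied most among the tested genes, with a coefficient of variation of 83.6%, and JUNB least, with 18.9%.

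FOS, FOSB and FOSL1 were highest in Mito-Lipo within each replicate number, although in each gene the Mito-Lipo and DMSO libraries overlapped. FOS, the founding AP-1 subunit, had FPKM of 31.98, 45.4 and 48.1 in Mito-Lipo, 21.2, 32.04 and 33.4 in Gilteritinib, 21.6, 29.5 and 29.5 in Com, and 20.8, 32.2 and 33.3 in DMSO. Within each replicate number the Mito-Lipo library was the highest, at 1.53, 1.41 and 1.45 times its DMSO library. Gilteritinib stayed at 1.02, 0.996 and 1.01 times DMSO and Com at 1.03, 0.917 and 0.886 times. Because replicate 1 was low in every condition, Mito-Lipo replicate 1 lay among replicates 2 and 3 of the other conditions, and the groups overlapped in FPKM for Mito-Lipo against DMSO. On the log2(FPKM + 1) scale the difference to DMSO was 0.53 (SE 0.23) for Mito-Lipo, 0.01 (95% interval -0.50 to 0.52) for Gilteritinib and -0.08 (-0.59 to 0.43) for Com. These 3 are given without a p, since FOS was selected on the Mito-Lipo libraries and on their order against the others.

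FOSB, a close relative of FOS, had 2.68, 6.49 and 5.55 FPKM in Mito-Lipo and 1.37, 2.39 and 2.92 in DMSO. It had 1.59, 2.77 and 2.44 FPKM in Gilteritinib and 1.33, 2.38 and 2.36 in Com. Mito-Lipo was 1.95, 2.72 and 1.90 times DMSO by number. The Mito-Lipo mean was 2.20 times that of DMSO, a log2 difference of 0.84 (SE 0.29), with a limma adjusted p of 0.507 and an adjusted p of 0.0738 with the replicate block. FOSL1, which encodes FRA1, had 5.64, 7.13 and 6.76 FPKM in Mito-Lipo against 3.44, 5.12 and 6.45 in DMSO, a log2 difference of 0.35 (SE 0.24, limma adjusted p = 0.807). FOSL1 had 3.01, 5.46 and 5.15 FPKM in Gilteritinib and 3.34, 5.56 and 5.22 in Com. FOSL2, the remaining FOS family gene, was steady, between 18.7 and 23.8 FPKM in all 12 libraries. The summed FOS family was 76.2 ± 11.7 FPKM in Mito-Lipo, 57.7 ± 8.84 in Gilteritinib, 56.1 ± 5.79 in Com and 56.7 ± 10.9 in DMSO (SD, n = 3). FOSB made up 6.27% ± 1.87 of that sum in Mito-Lipo and 3.84% ± 0.702 in DMSO.

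The JUN genes split, with JUN higher and JUND lower in Mito-Lipo than in DMSO. JUN had 1.72, 3.01 and 2.79 FPKM in Mito-Lipo, 1.03, 1.03 and 1.40 in Gilteritinib, 1.13, 1.40 and 1.32 in Com, and 0.954, 1.71 and 1.93 in DMSO. Mito-Lipo was 1.80, 1.76 and 1.45 times DMSO by number, and the log2 difference of 0.47 (SE 0.18) had a limma adjusted p of 0.576. This scale understates JUN, which lies close to the pseudocount of 1. JUNB, often a brake on JUN, had 26.4, 31.2 and 28.7 FPKM in Mito-Lipo and 20.4, 32.6 and 33.4 in DMSO, a log2 difference of 0.03 (95% interval -0.38 to 0.43). JUNB had 19.4, 20.9 and 25.0 FPKM in Gilteritinib and 20.3, 27.4 and 27.0 in Com, below the same-numbered DMSO library in all 3 pairs of each, by as little as 0.996 times for Com replicate 1.

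JUND, the JUN gene that resting cells also express, had 85.0, 106 and 133 FPKM in DMSO, 93.1, 52.5 and 47.3 in Mito-Lipo, 68.5, 36.5 and 43.6 in Gilteritinib, and 69.0, 78.1 and 88.4 in Com. All 3 Gilteritinib libraries lay below all 3 DMSO libraries, which held for 4.4% of all genes tested. The log2 difference was -1.14 (SE 0.28), with an unadjusted limma p of 0.00198 and an adjusted p of 0.9999. In Mito-Lipo the log2 difference to DMSO was -0.78 (SE 0.28, limma adjusted p = 0.531), but replicate 1 was 1.10 times DMSO where replicates 2 and 3 were 0.493 and 0.356 times. JUND was highest in replicate 1 in Mito-Lipo and Gilteritinib, and lowest in replicate 1 in Com and DMSO. The summed JUN family was 138 ± 31.0 FPKM in DMSO, 95.6 ± 22.6 in Mito-Lipo, 72.5 ± 15.4 in Gilteritinib and 105 ± 13.3 in Com (SD, n = 3). JUND was 78.2% ± 2.26 of that sum in DMSO and 65.8% ± 9.51 in Mito-Lipo, and the JUN share was 1.08% ± 0.166 and 2.81% ± 1.21. JUN, JUNB and JUND are single-exon genes in GENCODE 29, at chr1:58780788-58784327, chr19:12791496-12793315 and chr19:18279760-18281622.

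EGR1, which carries the 2 CArG boxes printed above, had 11.2, 54.2 and 51.5 FPKM in Mito-Lipo, 4.29, 26.0 and 26.3 in Gilteritinib, 4.30, 23.9 and 23.2 in Com, and 10.4, 30.6 and 33.0 in DMSO. Within each number the order was the same, with Mito-Lipo highest, DMSO next and the 2 gilteritinib-containing conditions lowest. Mito-Lipo was 1.08, 1.77 and 1.56 times DMSO. The log2 difference was 0.51 (SE 0.85, limma adjusted p = 0.952), an error set by the gap between replicate 1 and the rest. With the replicate block the SE was 0.15 and the adjusted p 0.180. EGR1 in Gilteritinib was 0.412, 0.850 and 0.796 times DMSO and in Com 0.413, 0.781 and 0.703 times, at log2 differences of -0.55 and -0.65 (limma adjusted p of at least 0.9999 for each).

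EGR2, whose promoter box matches that of EGR1, was near the limit of detection, at 0.0916, 0.466 and 0.563 FPKM in Mito-Lipo and 0.140, 0.0836 and 0.255 in DMSO. It had 0.0731, 0.146 and 0.231 FPKM in Gilteritinib and 0.0859, 0.138 and 0.165 in Com, and its Mito-Lipo replicates 2 and 3 were the highest of the 12 libraries. EGR3, another family gene that was singled out after its values were seen, had 0.258, 18.4 and 16.6 FPKM in Mito-Lipo against 0.203, 3.10 and 3.06 in DMSO. Its log2 difference was 1.47 (SE 1.01, limma adjusted p = 0.811). EGR3 passed on replicates 2 and 3 only (log2 difference 2.18, limma adjusted p = 0.000252) and with voom and the block (adjusted p = 0.00986). NAB2, the EGR-induced corepressor, had 4.58, 22.4 and 22.1 FPKM in Mito-Lipo, 4.23, 6.60 and 6.41 in Gilteritinib, 4.26, 7.47 and 7.35 in Com, and 3.95, 5.88 and 6.81 in DMSO. In EGR3 and NAB2, as in ATF3, the excess in Mito-Lipo sat mainly in replicates 2 and 3. NAB2 was 1.16, 3.80 and 3.25 times DMSO, with a log2 difference of 1.17 (SE 0.47, limma adjusted p = 0.582). NAB2 also passed on replicates 2 and 3 only (log2 difference 1.66, limma adjusted p = 0.000275) and with voom and the block (adjusted p = 0.0345). Voom without the block called neither, with a voom adjusted p of 0.921 for EGR3 and 0.619 for NAB2.

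**Figure D1:**
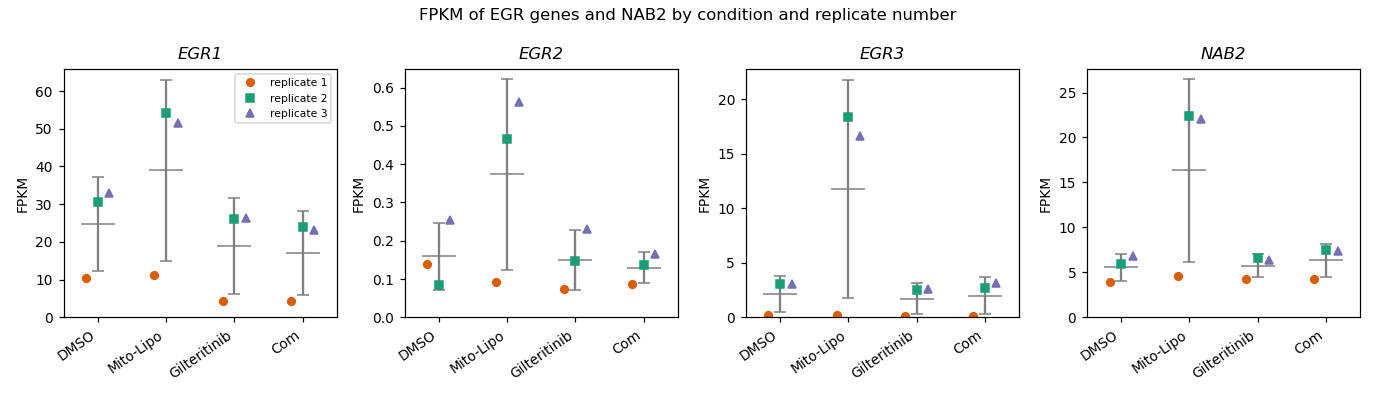
FPKM of EGR1, EGR2, EGR3 and NAB2 (vertical axes, linear, from 0, on separate scales) by condition, with points for libraries marked by replicate number and bars for the mean and SD of 3. Mito-Lipo replicates 2 and 3 are the highest libraries in all 4 genes, whereas Mito-Lipo replicate 1 lies with the replicate 1 libraries of the other conditions.

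IER2, a short early-response gene, had 6.73, 14.99 and 15.6 FPKM in Mito-Lipo and 5.59, 10.7 and 10.8 in DMSO, 1.20, 1.40 and 1.45 times by number. It had 5.96, 9.76 and 9.54 FPKM in Gilteritinib and 5.83, 8.67 and 8.81 in Com. The Mito-Lipo log2 difference was 0.39 (SE 0.33, limma adjusted p = 0.856). ATF3, a stress-induced ATF that p53 and ATF4 are both known to activate, had 1.62, 7.06 and 8.63 FPKM in Mito-Lipo, 0.909, 1.85 and 2.05 in Gilteritinib, 1.20, 2.23 and 2.75 in Com, and 1.03, 2.60 and 2.86 in DMSO. Mito-Lipo was 1.57, 2.71 and 3.02 times DMSO, and the ratio of the means, 2.67, was the highest of the 9 tested genes. The log2 difference was 0.95 (SE 0.45, limma adjusted p = 0.655).

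Set side by side, Mito-Lipo was above DMSO at all 3 replicate numbers in 7 of the 9 tested genes, FOS, FOSB, FOSL1, JUN, EGR1, IER2 and ATF3, and this held for 20.5% of all genes tested. FOS counts among the 7 although it was selected partly on the Mito-Lipo libraries. With limma, 0 of the 8 other genes passed an adjusted p of 0.05 in Mito-Lipo against DMSO, as did 0.0% of all genes. At an unadjusted p under 0.05, FOSB and JUN were higher and JUND was lower, against 7.9% of all genes. With the replicate block the unadjusted count was 6 higher and 1 lower, against 15.9% of all genes, and 0 passed after adjustment. A fit without replicate 1, a choice made after seeing the data, holds only replicates 2 and 3 of each condition. Its p-values measure only the spread between those libraries. In this fit 5 genes passed the adjusted threshold, against 6.41% of all genes. These were EGR1 (log2 difference 0.71, limma adjusted p = 0.00116), IER2 (0.48, 0.00390), ATF3 (1.24, 0.00518), JUND (-1.24, 0.00643) and FOSB (0.94, 0.00924). On fragments recovered from the FPKM, voom with the replicate block, also added after seeing the data, called FOSB (adjusted p = 0.00916) and ATF3 (adjusted p = 0.0168), against 1.6% of all genes. Voom without the block called 0 of all genes in this comparison, with a voom adjusted p of 0.509 for FOSB and 0.693 for ATF3. In bulk RNA a change in the share of expressing cells and a change in RNA per cell cannot be told apart.

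In Gilteritinib against DMSO the lowest value relative to vehicle was that of JUND, described above. The limma test called 0 of the 8 genes other than FOS after adjustment and 0.0% of all genes. JUND passed at an unadjusted p under 0.05, against 1.86% of all genes, and with the replicate block JUNB, JUND and EGR1 did, all lower, against 4.96%. Without replicate 1, JUND alone passed the adjusted threshold (log2 difference -1.55, limma adjusted p = 0.0185), against 0.614% of all genes. JUNB, JUND, EGR1 and ATF3 were below DMSO at all 3 numbers, but the share of all genes with that order was not counted. For the other tested genes the 95% intervals of the log2 difference reached from -0.60 to 0.66 for FOSB, -0.64 to 0.41 for FOSL1, -0.62 to 0.19 for JUN and -0.79 to 0.66 for IER2. With the replicate block their SEs were 0.12, 0.11, 0.13 and 0.11, against 0.29, 0.24, 0.18 and 0.33 without it.

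Com, with both drugs, had a mean FPKM below that of DMSO in all 10 genes. Its log2 difference to DMSO was negative in all 9 tested genes, from -0.65 in EGR1 to -0.03 in ATF3, as in 10031 of all 18574 genes. FOS is in both counts although it was selected for being lower in Com than in Mito-Lipo. Without replicate 1 of either condition the differences of all 9 were negative as well, from -0.51 in JUND to -0.08 in FOSL1. Leaving out Com replicate 1 alone, which unbalances the pairs, made the log2 difference positive in 6 of the 9, FOS (0.06), FOSB (0.091), FOSL1 (0.12), EGR1 (0.091), IER2 (0.011) and ATF3 (0.19). FOSB, JUNB, JUND and EGR1 were below DMSO at all 3 numbers, and here too the share of all genes was not counted. With limma 0 of the 8 genes other than FOS passed after adjustment, against 0.00538% of all genes, and 0 passed unadjusted, against 1.67%. With the replicate block EGR1 passed unadjusted but not after adjustment (limma adjusted p = 0.9995), against 4.35% of all genes. JUND had 69.0, 78.1 and 88.4 FPKM in Com, 0.811, 0.734 and 0.665 times DMSO.

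Com and Gilteritinib differ by the 20 nM mitoxantrone and also by 20 nM in place of 25 nM gilteritinib, and these cannot be told apart. FOS differed by -0.09 on the log2 scale (95% interval -0.60 to 0.42), given without a p because it was selected for being low in both conditions. Com was above Gilteritinib at all 3 replicate numbers in FOSL1, JUNB, JUND and ATF3 and below it in FOSB and IER2. For ATF3 the ratios were 1.32, 1.21 and 1.34. The share of all genes with either order was not counted for this comparison, so these counts cannot be set against it. In Mito-Lipo against DMSO, higher at all 3 numbers held for 20.5% of all genes. In JUND all 3 Com libraries lay above all 3 Gilteritinib libraries, as in 3.87% of all genes, although replicate 1 differed by only 1.01 times where replicates 2 and 3 differed by 2.14 and 2.03 times. Its log2 difference was 0.70 (SE 0.28), with an unadjusted limma p of 0.0307, against 1.63% of all genes, and an adjusted p of 0.9999. After adjustment 0 of the 8 genes other than FOS passed, against 0.0% of all genes, and with the block JUND was again the 1 gene with an unadjusted p under 0.05, against 4.39%.

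The comparisons with Mito-Lipo are those FOS was selected on, and they share the Mito-Lipo libraries with each other and with the comparison to DMSO. FOS was 0.664, 0.706 and 0.696 times Mito-Lipo in Gilteritinib and 0.674, 0.650 and 0.613 times in Com, at log2 differences of -0.52 and -0.61. In Com all FOS libraries lay below all Mito-Lipo libraries, the nearest being 29.5 against 31.98 FPKM. In Gilteritinib replicates 2 and 3, at 32.04 and 33.4 FPKM, reached the level of Mito-Lipo replicate 1. All 9 tested genes were lower in Gilteritinib than in Mito-Lipo at each replicate number, as were 28.8% of all genes, and in Com 8 were, as were 21.7% of all genes, with JUND as the exception. Groups did not overlap for FOSL1, JUN and JUNB in Gilteritinib, against 9.12% of all genes, and for FOS, FOSB, FOSL1 and JUN in Com, against 6.11%. FOS is in the 9, in the 8 and in this Com list although it was selected on these comparisons. The counts are therefore a description and no test. By size ATF3 led in Gilteritinib at a log2 difference of -1.20, before EGR1 at -1.06 and FOSB at -0.81. In Com EGR1 led at -1.16, before ATF3 at -0.98 and FOSB at -0.92. JUND was -0.35 in Gilteritinib and 0.34 in Com.

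Other genes of the pathway were counted from lists of textbook members, written with earlier results of these data known. Their counts are therefore a description. In Mito-Lipo against DMSO all 19 tested of 29 other immediate early genes had a positive log2 difference, as had 10595 of all 18574 genes, with a median of 0.36 against 0.03 over all genes tested. At an unadjusted limma p under 0.05, 5 were higher and 0 lower, against 7.9% of all genes in either direction. With the replicate block they were 11 and 0, against 15.9%, and 0 passed after adjustment in either fit. On replicates 2 and 3 only, 9 were higher after adjustment, against 6.41% of all genes, and with voom and the block 4 were, against 1.6%. KLF2 is among the 19 tested and reached 1 FPKM only in Mito-Lipo replicates 2 and 3 (1.14 and 1.28 FPKM) and DMSO replicate 3 (1.04 FPKM). It thus passed the filter on low values mainly through Mito-Lipo. BTG2, an antiproliferative gene, had 25.2, 42.9 and 43.2 FPKM in Mito-Lipo and 9.02, 13.1 and 13.5 in DMSO, a log2 difference of 1.54 (SE 0.23, limma adjusted p = 0.177), and the groups did not overlap. PLK3, a stress-responsive kinase, had 5.43, 5.78 and 5.20 FPKM against 2.83, 2.84 and 3.44, a log2 difference of 0.68 (SE 0.12, limma adjusted p = 0.279), also without overlap. Both passed on replicates 2 and 3 only (limma adjusted p = 0.000159 for BTG2 and 0.0249 for PLK3) and with voom and the block (adjusted p = 0.00916 and 0.0110). BTG2 and PLK3, like PLK2, are also known p53 targets. In Com their log2 differences to DMSO were 0.61 for BTG2, 0.56 for PLK2 and 0.35 for PLK3. They were the 3 genes of this list higher at an unadjusted p under 0.05, against 1.67% of all genes in either direction. Each had a limma adjusted p of 1.0. The list's median in Com was 0.00, against -0.01 over all genes, and in Gilteritinib -0.06, against -0.03, with 0 called.

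Of 18 genes known as AP-1 targets, 10 were tested, and all 10 had a positive log2 difference in Mito-Lipo against DMSO, with a median of 0.50 against 0.03 over all genes. Of these, 4 were higher at an unadjusted limma p under 0.05, against 7.9% of all genes in either direction, 7 were with the block, against 15.9%, and 0 passed after adjustment in either fit. On replicates 2 and 3 only, 8 were higher after adjustment, against 6.41% of all genes, and with voom and the block 4 were, against 1.6%. HMOX1, the heme-degrading enzyme, had 1.62, 4.05 and 4.11 FPKM in Mito-Lipo and 0.654, 0.407 and 0.286 in DMSO, a log2 difference of 1.4997 (SE 0.26, limma adjusted p = 0.305). IL1B, an inflammatory cytokine, had 3.02, 11.9 and 11.1 FPKM against 2.08, 3.45 and 3.79 (log2 difference 1.09, SE 0.38, limma adjusted p = 0.519). HMOX1 did not overlap between the groups, and IL1B did, through replicate 1. Both passed on replicates 2 and 3 only (limma adjusted p = 0.000778 for HMOX1 and 0.000712 for IL1B) and with voom and the block (adjusted p = 0.0242 and 0.0299). HMOX1 reached the 1 FPKM needed for testing only in Mito-Lipo and in Com replicate 1 (1.86 FPKM). It thus entered the counts of this list through the condition where it was high, and its part in them is no support. VIM, an intermediate filament gene, differed by 0.51 in Mito-Lipo and 0.36 in Com, and ANXA1, a phospholipid-binding protein gene, by 0.23 and 0.39. In Com the median of the 10 was 0.16 with 1 gene, ANXA1, higher at an unadjusted p under 0.05, against 1.67% of all genes in either direction. In Gilteritinib the median was 0.12 with 0, against 1.86%.

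The remaining AP-1 family and the upstream regulators lay near the median of all genes. Of 12 other AP-1 family genes 8 were tested, with a median log2 difference of 0.03 in Mito-Lipo. At an unadjusted limma p under 0.05, 0 of them were called, against 7.9% of all genes. FOSL2 differed by 0.14, BATF by -0.26, MAFF by 0.13 and MAFG by 0.12. Of 22 upstream kinases and factors 21 were tested, with a median of 0.03. NAB2 and MRTFA (log2 difference 0.24), a coactivator of SRF, were the 2 higher at an unadjusted p under 0.05. That is a share near the 7.9% of all genes in either direction. SRF itself had 15.7 FPKM on average in Mito-Lipo and 15.5 in DMSO. Its partners ELK1 and ELK4 and the factor CREB1 differed by 0.10, 0.02 and -0.05. In Com the median of the upstream list was 0.01 and of the AP-1 list -0.05, with 0 called in each, and RPS6KA5 and ELK3 differed by -0.12 and 0.16.

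Heat shock genes were listed as a sign of general stress. Of 8 tested of 10, 3 were lower in Mito-Lipo than in DMSO at an unadjusted limma p under 0.05 and 0 higher, against 7.9% of all genes in either direction, and 0 passed after adjustment. HSPB1 (log2 difference -0.47) and HSPH1 (-0.31) were among the 3, and the median was -0.17. HSPD1 differed by -0.17, and BAG3 by 0.04, with its Mito-Lipo libraries at 5.90 to 6.05 FPKM all above its DMSO libraries at 5.72 to 5.78, while HSPA1A and HSPA1B, near-identical copies, stayed under 0.1 FPKM in all libraries. The list summed to 1288 to 1397 FPKM in Mito-Lipo and 1462 to 1574 in DMSO. Of the 10 myeloid markers 3 were higher in Mito-Lipo at an unadjusted p under 0.05, against 7.9% of all genes, among them CSF1R (0.80) and MEIS1 (0.18), while 4 had a negative difference, among them SPI1 (-0.23). On replicates 2 and 3 only, 4 of these markers were higher and 1 lower after adjustment, against 6.41% of all genes in either direction. With voom and the block 2 were higher and 0 lower, against 1.6%. The list summed to 888 to 1287 FPKM against 876 to 1011, of which LYZ alone made up 493 to 930 and 490.4 to 686. In Com MEIS1 differed by 0.10, SPI1 by -0.30 and PTPRC by 0.17. The lymphoid, erythroid, epithelial and stromal list summed to 25.1 to 41.1 FPKM in Mito-Lipo and 19.8 to 26.7 in DMSO, with log2 differences of 0.31 for NKG7 and 0.54 for PECAM1. The part of these markers in the differences of the immediate early genes was not tested.

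Across the 12 libraries, the genes most like FOS in log2(FPKM + 1) were SH3BGRL3 (Pearson r = 0.98), DPYSL2, RAB5B, GPBP1L1 and PLAU (r = 0.97), of the 9327 genes compared, which average at least 5 FPKM. These libraries share the replicate 1 shift. With the mean of each replicate number taken off, the order became ARPC1B (r = 0.98), SYS1, MYADM, BET1L and SREBF2 (r = 0.96). Of the genes described here that were compared, IER2 was closest to FOS at r = 0.94 and then 0.90 with the number means off, followed by FOSL1 at 0.93 and 0.86, EGR1 at 0.90 and 0.81 and JUNB at 0.73 and 0.48. JUND was not like FOS, at r = -0.31 and -0.25.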

How the data were processed

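RNA from 12 MV4-11 libraries was measured by RNA-seq. Per the labels, total RNA was extracted with a miRNeasy kit, reverse transcribed and amplified after Geo-seq, and made into TruePrep libraries. The study's methods name TRIzol instead. The authors deposited 1 table of FPKM per gene, with no further scaling stated. The submitters' processing notes list Bowtie 0.12.9, Cufflinks 2.1.1, HTSeq, DESeq2 and the mouse build mm10. The identifiers are human, and 98.5% to 98.9% of low values of short genes were whole fragments (within 0.1) at GENCODE 29 (GRCh38) lengths, from which depth was recovered. Fragments of the 10 genes are therefore approximate. Of the table's sample columns 0 were left out.

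FPKM were taken to log2(FPKM + 1), and tests ran on the 18574 genes that reached 1 FPKM in 3 or more libraries. All 12 libraries entered 1 limma fit (limma 3.58.1, R 4.3.3) with a mean for each condition and a mean-variance trend, and p-values were adjusted over all genes by the Benjamini-Hochberg method. The step was run on simulated data with independent noise between libraries, no replicate shift and effects larger than those of these genes. That run does not measure its power or error rate on these libraries. A called gene has an adjusted p under 0.05.

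Deviations from the condition means correlated in all 18 same-numbered pairs, at r = 0.165 to 0.657, against -0.562 to 0.434 in 36 others. These ranges overlap. A shift of replicate 1 by itself would make same-numbered pairs correlate, so this comparison cannot show that the other numbers pair. The choice to compare and block by number comes from the data, not the labels.

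The 10 genes and the lists were chosen with earlier results of these data known. Named besides the 10 genes are, per list, the 3 genes with the smallest p in Com and the 2 in Mito-Lipo against DMSO, SRF, ELK1, ELK4, CREB1, FLT3 and the genes most like FOS. Other list genes were chosen after their values were seen, and 1 marker that the rule names is not reported here. Alternatives were a pseudocount of 0.1, no filter, only genes averaging 5 FPKM or more, median-ratio scaling, no trend, the replicate block, only the 6 libraries compared and each library left out; replicates 2 and 3 only and voom on recovered fragments were added after seeing the data.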

Additional observations from a re-analysis of the deposited data

How the results depend on the processing

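Under a pseudocount of 0.1, no filter, a higher filter of 5 FPKM on average, median-ratio scaling, no mean-variance trend, only the 6 libraries compared, and each library left out, 0 of these genes were called in any comparison with DMSO or of Com with Gilteritinib, and with the replicate block the called count was also 0. Replicates 2 and 3 only called 5 in Mito-Lipo and 1 in Gilteritinib against DMSO, and voom with the replicate block called 2 in Mito-Lipo. Voom without the block called 0 of all genes in every comparison. With a mean FPKM of at least 5, fewer genes were tested and 5 in place of 8 were lower in Com than in Mito-Lipo. JUNB in Mito-Lipo (-0.14) and FOSB in Gilteritinib (-0.017) against DMSO changed sign on replicates 2 and 3 only.

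Leaving out 1 library, which breaks a pair of the same replicate number, changed the sign of small log2 differences, and the extremes given here came from replicate 1 of either condition, except that JUNB in Mito-Lipo against DMSO was lowest without DMSO replicate 1 (-0.19) and highest without DMSO replicate 3 (0.15). In Gilteritinib against DMSO the values without DMSO replicate 1 and without Gilteritinib replicate 1 were -0.20 and 0.21 for FOS, -0.18 and 0.19 for FOSB, -0.32 and 0.10 for FOSL1, -1.06 and 0.24 for EGR1, and -0.34 and 0.14 for IER2. In Com against DMSO, without DMSO replicate 1 and without Com replicate 1, they were -0.29 and 0.06 for FOS, -0.29 and 0.091 for FOSB, -0.27 and 0.12 for FOSL1, -1.15 and 0.091 for EGR1, -0.44 and 0.011 for IER2, and -0.32 and 0.19 for ATF3. In Com against Gilteritinib, without Gilteritinib replicate 1 and without Com replicate 1, they were -0.29 and 0.053 for FOS, -0.27 and 0.061 for FOSB, -0.17 and 0.24 for FOSL1, -0.88 and 0.64 for EGR1, and -0.30 and 0.076 for IER2. In Mito-Lipo against DMSO, EGR1 ranged from 0.00 to 1.22 without replicate 1 of DMSO or of Mito-Lipo. Without replicate 1 of both conditions EGR1 stayed below DMSO, at -0.27 in Gilteritinib and -0.42 in Com. EGR2 was not tested because it was under 1 FPKM in all libraries.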
